A study of Mus musculus with 2 samples.

Results

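The genes described here encode 8 basic helix-loop-helix (bHLH) transcription factors of the developing heart, Hand1, Hand2, Tcf21, Hey1, Hey2, Heyl, Hes1 and Hes6, and the long noncoding RNA Uph, which starts beside Hand2. Their open chromatin was read from a list of ATAC-seq peaks by taking each distinct interval that the authors assigned to the symbol of 1 of these genes. This gave 23 of the 26232 distinct peaks, spread over 8 of the 9 genes, in a list that names 15351 genes. Hand2 had no assigned peak and was counted as 0.

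The cells were cardiac progenitor cells (CPCs), made by differentiating mouse embryonic stem cells toward heart muscle for 5 days, from the E14 line with a Tg(Nkx2-5-EmGFP) reporter that marks cells expressing the early heart factor Nkx2-5, labelled C57BL/6 and at passages 16-20. ATAC-seq uses the Tn5 transposase to cut and tag accessible DNA. There was 1 group of 2 replicates, per the study's methods from independent differentiations, and no treatment, genotype or time point to compare with. The authors deposited 1 list of regions found in both replicates, with no score and no value per replicate, so depth was unknown and no value below has a replicate error.

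bHLH factors bind DNA as dimers at short palindromic sequences called E-boxes, and Hand, Tcf21 and Twist type factors do so together with the broadly expressed E proteins. Hand1 and Hand2 are needed for ventricle and outflow tract formation, and Tcf21 marks the epicardium and its fibroblast descendants. Most Hey and Hes proteins are repressors, several of them direct targets of Notch signalling, in which the cleaved receptor joins the DNA-binding protein RBPJ at the target gene. The Uph transcript and its transcription are known to act on Hand2 expression in the heart.

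The label of the cells was read against markers. All 8 cardiac progenitor markers (Isl1, Nkx2-5, Gata4, Gata6, Tbx5, Mef2c, Tbx20 and Fgf10) had an assigned peak, 35 peaks in all, and 5 of the 8 had a peak over the transcription start site (TSS), beside 51.8% of all GENCODE protein coding genes. Here and below, a peak over the TSS means over the 5′-most start of the protein coding transcripts of a gene in GENCODE. Pluripotency markers had 8 peaks at 3 of 4 genes, with the TSS covered at 1 of 4 and no peak at Pou5f1. Endothelial and blood markers had 8 peaks at 3 of 4 genes (TSS covered at 1 of 4), and endoderm markers had 9 at 2 of 4 (1 of 4). Neural markers had 14 peaks at 4 of 4 genes (TSS covered at 1 of 3 annotated), and markers of feeder fibroblasts had 10 at 4 of 4 (3 of 4). Peaks were thus not restricted to the cardiac markers. Whether the ATAC-seq cells were sorted for GFP is not clear from the sources used here, and the list pools all cells of a library, so the cells that gave a peak at a bHLH gene cannot be told apart.

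The genome sequence just before each coding TSS is shown because peaks lay over the start of the Hey and Hes genes and not over that of Hand1, Hand2 or Tcf21. Each line gives 150 bases of the reference mm9 genome, 5′ to 3′ on the strand of the gene and ending at the base before the TSS, and capitals mark TGGGAA, the core of the RBPJ motif, where it is present on either strand. The first 5 windows lay inside a peak and the other 3 did not.
Hes1, chr16:30065276-30065425, plus strand: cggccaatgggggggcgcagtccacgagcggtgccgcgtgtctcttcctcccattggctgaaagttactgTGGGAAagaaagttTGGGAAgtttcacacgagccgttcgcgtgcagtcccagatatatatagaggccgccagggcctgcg
Hes6, chr1:93309800-93309949, minus strand: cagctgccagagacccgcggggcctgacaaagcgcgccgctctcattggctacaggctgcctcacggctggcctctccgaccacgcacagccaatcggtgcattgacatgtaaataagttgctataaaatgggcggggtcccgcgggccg
Hey1, chr3:8667040-8667189, minus strand: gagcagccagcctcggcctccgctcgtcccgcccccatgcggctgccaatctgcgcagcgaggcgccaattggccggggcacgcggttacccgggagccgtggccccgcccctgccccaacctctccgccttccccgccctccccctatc
Hey2, chr10:30562608-30562757, minus strand: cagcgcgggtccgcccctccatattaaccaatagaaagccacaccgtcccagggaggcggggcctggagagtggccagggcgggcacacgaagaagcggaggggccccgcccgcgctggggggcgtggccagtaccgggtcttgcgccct
Heyl, chr4:122910649-122910798, plus strand: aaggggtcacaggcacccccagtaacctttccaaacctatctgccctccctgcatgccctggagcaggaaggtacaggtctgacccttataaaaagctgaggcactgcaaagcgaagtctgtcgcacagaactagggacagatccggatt
Tcf21, chr10:22539935-22540084, minus strand: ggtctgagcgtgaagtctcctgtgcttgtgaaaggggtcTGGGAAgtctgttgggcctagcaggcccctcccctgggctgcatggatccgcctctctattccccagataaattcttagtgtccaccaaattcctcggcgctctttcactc
Hand1, chr11:57646321-57646470, minus strand: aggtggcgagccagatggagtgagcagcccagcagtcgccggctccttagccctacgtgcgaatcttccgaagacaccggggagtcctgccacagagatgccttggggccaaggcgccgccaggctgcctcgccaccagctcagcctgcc
Hand2, chr8:59799630-59799779, plus strand: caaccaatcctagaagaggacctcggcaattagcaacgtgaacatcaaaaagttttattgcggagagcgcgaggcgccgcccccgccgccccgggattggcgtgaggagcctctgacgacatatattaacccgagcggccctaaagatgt

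Only Hes1 among the 5 Hey and Hes genes held TGGGAA in this window, with copies starting at −80 and −66 from the TSS, and in all 2 of the 8 promoters held it, since Tcf21 had a copy at −111. Of 22219 GENCODE protein coding promoters, 12.7% held the same letters on either strand in a window of the same length. The Hes1 window also held 2 copies of CACGAG, starting at −128 and −54, which match CACNAG, the N-box bound by Hes proteins. The N-box was found in 3 of the 8 windows (Hes1, Hand1 and Tcf21) against 23.1% of all promoters. The E-box CANNTG was found in 3 of the 8 (Hand1, Hey1 and Hes6) against 44.4%, and AGATAA, the GATA motif, in Tcf21 alone against 5.00%. A match is a description of the letters and not a measured binding site, and the absence of a match says nothing of binding elsewhere.

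The second set of sequences is from the distal peaks of Hand1 and Tcf21 and from the peak next to Hand2, the regions that stood open while these promoters carried no peak. Each line gives the central 120 bases of the peak on the plus strand of mm9, from the nearest Hand1 peak outward for the first 5, then the 2 Tcf21 peaks and the Uph peak, and capitals mark the E-box CANNTG.
Hand1, chr11:57661116-57661235: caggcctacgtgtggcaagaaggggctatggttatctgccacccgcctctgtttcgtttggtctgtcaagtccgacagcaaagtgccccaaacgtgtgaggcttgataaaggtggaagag
Hand1, chr11:57680262-57680381: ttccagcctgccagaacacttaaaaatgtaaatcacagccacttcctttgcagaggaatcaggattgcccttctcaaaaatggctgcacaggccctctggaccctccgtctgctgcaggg
Hand1, chr11:57699605-57699724: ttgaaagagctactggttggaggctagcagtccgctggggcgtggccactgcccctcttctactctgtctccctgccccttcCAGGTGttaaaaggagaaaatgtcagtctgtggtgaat
Hand1, chr11:57717911-57718030: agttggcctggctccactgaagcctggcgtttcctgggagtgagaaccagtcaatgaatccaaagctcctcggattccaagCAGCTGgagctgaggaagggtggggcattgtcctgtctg
Hand1, chr11:57726748-57726867: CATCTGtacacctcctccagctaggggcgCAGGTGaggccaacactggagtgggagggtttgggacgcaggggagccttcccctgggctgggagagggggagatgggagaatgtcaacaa
Tcf21, chr10:22563403-22563522: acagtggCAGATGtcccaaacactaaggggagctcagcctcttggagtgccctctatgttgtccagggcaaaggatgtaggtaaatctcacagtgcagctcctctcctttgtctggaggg
Tcf21, chr10:22592857-22592976: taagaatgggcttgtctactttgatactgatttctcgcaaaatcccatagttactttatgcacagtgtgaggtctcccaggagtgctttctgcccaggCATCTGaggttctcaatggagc
Uph, chr8:59791407-59791526: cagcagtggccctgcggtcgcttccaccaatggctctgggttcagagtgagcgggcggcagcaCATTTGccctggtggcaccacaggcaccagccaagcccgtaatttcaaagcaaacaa

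An E-box lay in 6 of these 8 centres (3 of the 5 at Hand1, both at Tcf21 and that at Uph), and 45.3% of all peaks with a midpoint beyond 1 kb of a TSS had one in a window of the same length. Over all 23 peaks the central 150 bp held an E-box in 12 (52.2%), near the 45.1% of the whole list. CATCTG or its reverse complement CAGATG occurred in the farthest Hand1 peak and in both Tcf21 peaks, and the single E-box of the Uph centre was CATTTG. These variants were picked from the sequences shown and their share over all peaks was not counted, so they are not a trait of these peaks. The nearest Hand1 peak held no E-box in this window and 1 GATA motif, and the Hand1 peak 34671 bp upstream held neither.

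A peak lay over the TSS of all 5 Hey and Hes genes and over that of none of the 3 others. That made 5 of the 8 coding genes, beside the 51.8% of all GENCODE protein coding genes. By assignment, 7 of the 8 coding genes had at least 1 peak, against 62.5% of the protein coding genes of RefSeq. Peaks lay over CpG-rich promoters far more often than over others in this list, so the 8 were also read by class. A promoter, here the TSS with 500 bp on either side, was called CpG-rich if its GC content reached 50% and its CpG ratio, the observed number of CpG over that expected from base composition, reached 0.6.

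Of the 4 CpG-rich promoters, those of Hey1 (GC 70.8%, CpG ratio 0.877), Hey2 (66.8%, 0.853) and Hes6 (64.8%, 0.705) carried a peak and that of Hand2 (53.7%, 0.743) did not, against 88.3% of CpG-rich promoters covered in the whole list. The nearest peak edge was 7888 bp from the Hand2 TSS, and 6.68% of all CpG-rich promoters, covered ones included, lay at least as far. Among the 1155 CpG-rich promoters without a covering peak the median distance was 10920 bp, so Hand2 lay nearer to a peak than that median. Among the 4 CpG-poor promoters, those of Heyl (62.2%, 0.537) and Hes1 (45.8%, 0.669) carried a peak and those of Hand1 (55.4%, 0.339) and Tcf21 (54.6%, 0.510) did not, with 22.4% of CpG-poor promoters covered in the list. Hes1 missed the CpG-rich class on its GC content alone and Heyl on its CpG ratio alone. Absence from the list is not a measurement of closed chromatin, since a region called in a single replicate was not kept.

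**Figure D1:**
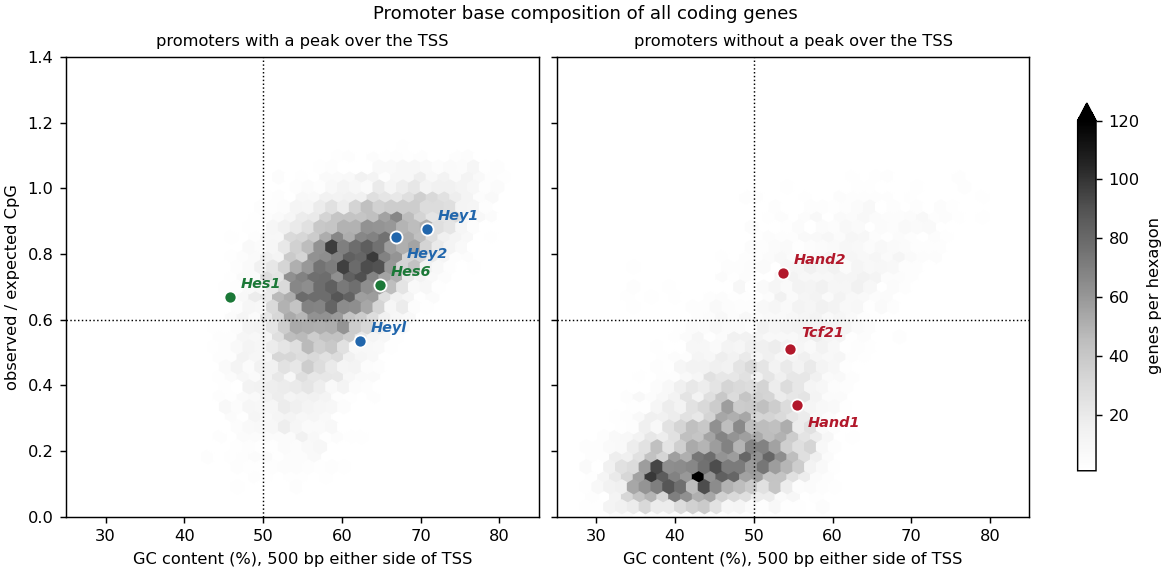
GC content in percent (x axis) against the observed over expected CpG ratio (y axis) of the promoters of all GENCODE protein coding genes, as the number of genes per hexagon, for promoters with a peak over the TSS (left) and without (right), with dotted lines at the limits of the CpG-rich class. Hey genes (blue) and Hes genes (green) all lie on the left, and Hand1, Hand2 and Tcf21 (red) on the right, where Hand2 is the member inside the CpG-rich quadrant.

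Hand1, which drives growth of the left ventricle and of extraembryonic tissue, had 5 assigned peaks, all upstream and none near its start. They lay at chr11:57660818-57661532, chr11:57679756-57680886, chr11:57699390-57699939, chr11:57717366-57718575 and chr11:57726299-57727316 (mm9), with midpoints 15525, 34671, 54015, 72321 and 81158 bp upstream in the deposited distances. Their widths were 715, 1131, 550, 1210 and 1018 bp. The series was therefore made of narrow to ordinary peaks, between the percentiles 5.02 and 79.2 of width among all peaks beyond 1 kb of a TSS.

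From the nearest Hand1 peak outward, the gaps between neighbouring peaks were 18223, 18503, 17426 and 7723 bp, so the last pair stood closer together than the others, over a span of 66499 bp without annotated exons at the midpoints. The Hand1 TSS used by the authors and that of GENCODE differ by 670 bp, and from the latter (chr11, minus strand, position 57646320) the nearest peak edge was 14498 bp away. The next peaks outside the series were assigned to Sap30l, 44788 bp away on the side of the gene, and to Larp1, 15538 bp beyond the farthest Hand1 peak. GENCODE also has a short coding model, Gm11003, whose TSS lies 4946 bp upstream of that of Hand1 and which is not in the RefSeq table, so by the nearest GENCODE coding TSS all 5 peaks went to Gm11003 and Hand1 had 0.

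Tcf21 had 2 peaks, both upstream, at chr10:22562689-22564236 (1548 bp wide, 23528 bp from the TSS) and chr10:22592628-22593205 (578 bp wide, 52982 bp from the TSS). The nearer was wider than 90.8% of all peaks beyond 1 kb and the farther was wider than 7.20%. No other peak came closer to the Tcf21 TSS than 22755 bp, the edge of the nearer one. Both midpoints were intergenic.

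Hand2, the Hand factor of the right ventricle and outflow tract, sat between flanking coding genes whose TSSs were 769893 bp (Fbxo8) and 134940 bp (Scrg1) away. The nearest peak, at chr8:59791040-59791892, was 853 bp wide and had its midpoint 8314 bp upstream of the Hand2 TSS. The authors assigned it to Uph, at a deposited distance of 8191 bp downstream. The Uph start is in no annotation used here. If Uph lies on the strand opposite to Hand2, which was assumed, that signed distance puts its start 123 bp from the Hand2 TSS. The same interval would then be upstream of Hand2 and downstream of the Uph start. On the 3′ side, 3 more peaks lay 13155, 20098 and 32852 bp downstream of the Hand2 TSS, with widths of 769, 783 and 982 bp, all assigned to the noncoding RNA 5033428I22Rik. Hand2 thus had 0 peaks by symbol and 4 by distance within 100 kb, and assigned by nearest GENCODE coding TSS it would have 4, or 3 if Uph is kept.

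**Figure D2:**
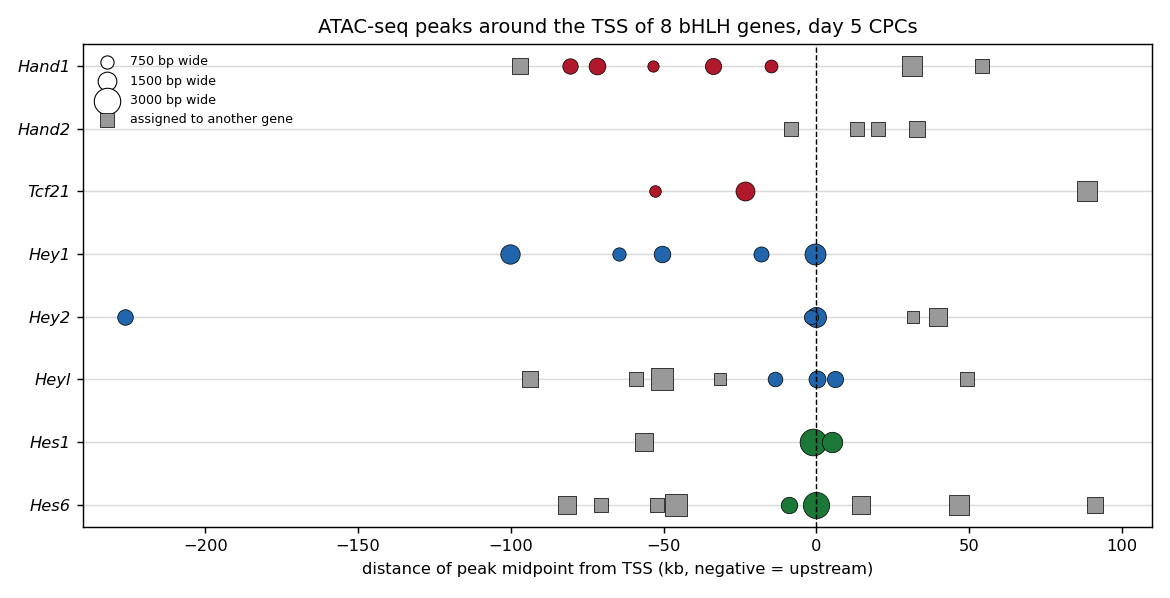
Distance of each peak midpoint from the GENCODE TSS in kb (x axis, negative values upstream on the strand of the gene) for the 8 coding genes (rows), with symbol area proportional to peak width. Coloured circles are peaks assigned to that gene (red Hand1 and Tcf21, blue Hey, green Hes) and grey squares are peaks within 100 kb assigned to another gene or, at Hand2, to Uph and 5033428I22Rik. The 5 Hand1 peaks and both Tcf21 peaks lie left of the TSS, and Hes1 and Hes6 have their own peaks within 10 kb.

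Hey1, a Notch target of the atrial chambers and endocardium, also had 5 peaks and all of them had midpoints upstream, but the first, at chr3:8666536-8668431 and 1896 bp wide, covered the TSS. The others lay 18202, 50693, 64715 and 100282 bp upstream, with widths of 979, 1182, 765 and 1615 bp, and the span from first to last was 101593 bp. The farthest was the widest of the distal set, wider than 92.0% of all peaks beyond 1 kb. No coding TSS lay between any of these peaks and Hey1, whose nearest coding neighbours are Stmn2 (157512 bp) and Mrps28 (256879 bp).

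Hey2, which is expressed in the compact ventricular myocardium, had a pair of peaks at its start and a remote one. The first (chr10:30561825-30563545, 1721 bp) covered the TSS, the second (chr10:30563821-30564692, 872 bp) followed after a gap of 275 bp, and the last (chr10:30788352-30789394, 1043 bp) lay 226283 bp upstream, the longest distance among the 23. On that side the next coding TSS, that of Hddc2, lay 470581 bp from the Hey2 TSS, so the remote peak was nearly midway between these genes. The remote peak had the lowest GC content of all 23 (49.0%) and a CpG ratio of 0.064.

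Heyl, the third Hey gene, also found in vascular smooth muscle, had peaks on both sides of its start. The peak over the TSS (chr4:122910343-122911576, 1234 bp) was the narrowest of the 5 promoter peaks, at percentile 41.1 of width among peaks within 1 kb of a TSS. A second (chr4:122916473-122917599, 1127 bp) lay 6236 bp downstream inside the gene, over an exon of a noncoding Heyl transcript, with a GC content of 63.7%, above that of 97.4% of all peaks beyond 1 kb. The third (chr4:122896674-122897591, 918 bp) lay 13667 bp upstream.

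Hes1, the general Notch effector, had the widest peak of the set, 3074 bp (chr16:30062903-30065976), which covered the TSS and reached mostly upstream, with its midpoint at −1004 bp. It was wider than 99.0% of all peaks in the list. The other Hes1 peak (chr16:30069513-30071304, 1792 bp) lay 4965 bp downstream of the TSS, past the 3′ end of the gene, and was wider than 94.3% of peaks beyond 1 kb. Hes6, an antagonist of Hes1, followed with a promoter peak of 2952 bp (chr1:93308544-93311495), wider than 98.2% of peaks within 1 kb, and a peak of 1168 bp (chr1:93318274-93319441) located 9058 bp upstream in an intron of the clock gene Per2.

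**Figure D3:**
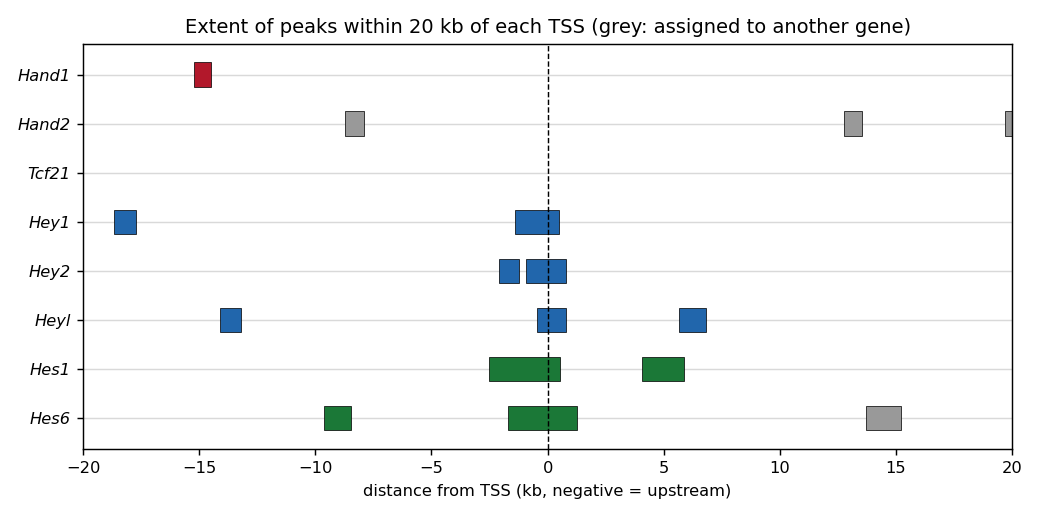
Extent of the peaks (bars) within 20 kb of the TSS of each coding gene (rows) against distance from the TSS in kb (x axis, negative values upstream); colours stand for Hand1 and Tcf21 (red), Hey (blue), Hes (green) and peaks assigned to another gene (grey). Bars cross the dashed line of the TSS for Hey1, Hey2, Heyl, Hes1 and Hes6, Tcf21 has no bar in this range, and the bars of 3074 bp at Hes1 and 2952 bp at Hes6 are the widest.

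By family, the 7 peaks of Hand1 and Tcf21 were all upstream and all beyond 10 kb, with a median width of 1018 bp and GC contents between 49.5 and 55.5%. The 11 Hey peaks included 6 beyond 10 kb, with a median width of 1127 bp and GC contents from 49.0 to 63.9%. The 4 Hes peaks lay within 10 kb, with a median width of 2372 bp and GC contents from 58.6 to 61.1%, all above the Hand1 and Tcf21 range. GC content also falls with distance in the whole list, from a median of 58.6% within 1 kb to 51.4% beyond, and the Hes peaks lay nearer to their TSS than any Hand1 or Tcf21 peak. Among all peaks beyond 1 kb, the Hes peaks of that class were at GC percentiles 92.4, 94.9 and 91.0. The 1 Hes peak within 1 kb was at percentile 69.9 of its class. Whether distance accounts for the difference in GC content was not tested. The median width over all 23 peaks was 1131 bp (95% interval over the peaks 918 to 1548 bp), beside 1081 bp for the whole list. The list's median differs by distance from the TSS, and within each class the median of these peaks was the larger, at 1808.5 bp for 4 peaks within 1 kb (list 1326 bp) and 1043 bp for 19 peaks beyond 1 kb (list 911 bp), with no test made. By its midpoint the Hes1 promoter peak, which covered the TSS, was in the class beyond 1 kb. These intervals, like those below, cover counting error over peaks and not variation between differentiations.

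**Figure D4:**
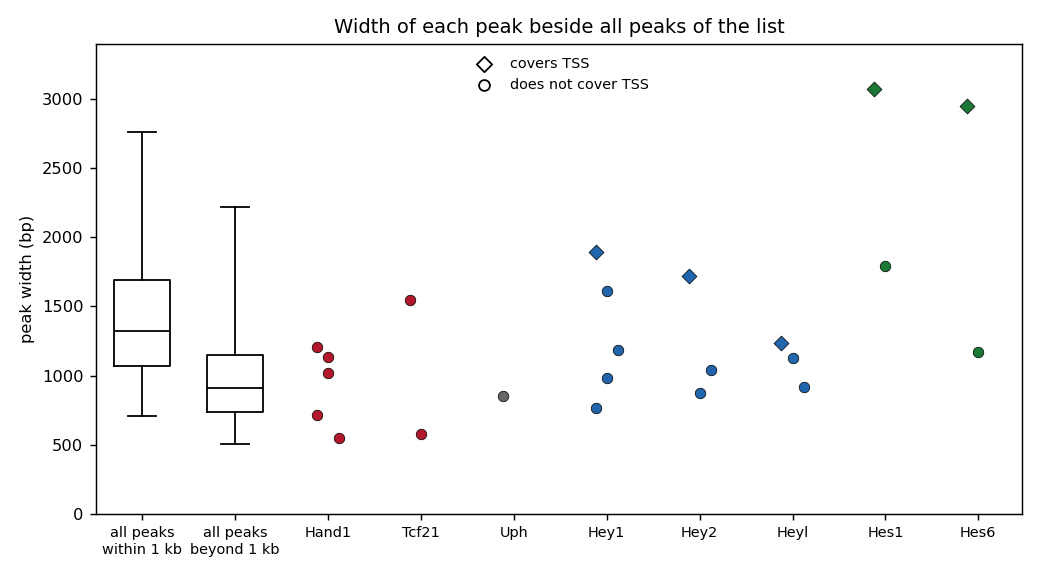
Peak width in bp (y axis) for each of the 23 peaks by assigned gene, as diamonds where the peak covers the TSS and circles otherwise (red Hand1 and Tcf21, grey Uph, blue Hey, green Hes), beside boxplots of all peaks of the list within 1 kb and beyond 1 kb of the assigned TSS (median, quartiles and whiskers around the middle 95% of peaks). The Hes1 and Hes6 promoter peaks lie above the upper whiskers, and the Hand1 peaks range from 550 to 1210 bp.

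The peaks were placed differently from the list as a whole, with no test made of the difference. A midpoint within 1 kb of the assigned TSS was found for 4 of 23 peaks (17.4%, Wilson 95% interval 6.98 to 37.1%) beside 44.9% of all peaks, and 6 of 23 (26.1%) lay between 50 and 100 kb beside 8.76%. The Hes1 promoter peak covered the TSS but had its midpoint at −1004 bp, so it was counted among the 19 peaks beyond 1 kb. Upstream midpoints made up 19 of 23 (82.6%, 62.9 to 93.0%) beside 40.3% of all peaks, and 16 of the 19 beyond 1 kb beside 44.2% of all such peaks. With peaks assigned by nearest GENCODE coding TSS, the upstream share of these genes was 71.4%. The peaks of 1 gene share a locus and are not independent, so the gene counts follow.

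With 2 or more peaks there were 7 of the genes. In 5 of them every peak midpoint lay upstream (Hand1, Tcf21, Hey1, Hey2 and Hes6), against 14.1% of all such genes. The promoter peaks of Hey1, Hey2 and Hes6 extended past the TSS, so only Hand1 and Tcf21 had every peak wholly upstream. The room on the 2 sides was unequal. The neighbouring coding TSS of Tcf21 was 88190 bp away downstream (Tbpl1) and 529767 bp upstream (Eya4). For Hey2 these distances were 39694 bp (Ncoa7) and 470581 bp (Hddc2). The downstream neighbour was also the nearer for Hey1 and Hes6, and the farther for Heyl, Hes1 and, with Gm11003 upstream, Hand1. Whether this room accounts for the upstream share was not tested. Hand1 and Hey1 had 5 peaks each, so 2 of the 9 reached a number that 3.54% of all genes with a peak reached. For both the 5 midpoints were all upstream, against 5.52% of the genes with 5 or more. No peak within 2 kb of the TSS was seen for 2 of the 7 (Hand1 and Tcf21), against 20.7% of genes with 2 or more peaks, and for 1 of the 2 with 5 peaks (Hand1), against 19.7%. The mean was 2.88 peaks over the 8 genes with a peak (2.56 over the 9) and 1.71 over all genes with a peak, of which 60.8% had exactly 1.

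Motif letters were also counted in the central 300 bp of every peak, on both strands. The E-box CANNTG was present in 19 of 23 (82.6%, 62.9 to 93.0%) beside 68.4% of all peaks, a share inside that interval, and beyond 1 kb in 84.2% of 19 beside 76.3%. TGGGAA was present in 9 of 23 (39.1%, 22.2 to 59.2%) beside 23.7%. The N-box CACNAG was present in 10 of 23 (43.5%) beside 46.1%, so its share was near that of the list. AGATAA was present in 5 of 23 (21.7%, 9.66 to 41.9%) beside 9.50%, all 5 in peaks beyond 1 kb, where the shares were 26.3% of 19 and 14.6%. In the central 150 bp the order turned, with AGATAA in 4.35% of the 23 peaks and 5.10% of all peaks. With 23 peaks these intervals are wide, and those of TGGGAA and AGATAA, restricted to peaks beyond 1 kb (15.4 to 54.0% and 11.8 to 48.8%), hold the list's shares of 28.1 and 14.6%. E-box letters can overlap a match of another motif by a base or more, so the counts are not exclusive.

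None of the genes below is a member, and they are given as counts. For comparison, 62.5% of RefSeq protein coding genes had an assigned peak and 51.8% of GENCODE ones had a peak over the TSS. Among all genes with a peak, 4.08% had exactly 4 peaks and 3.54% had 5 or more. Of 7 other Hes and Hey type repressors, 4 had a peak, 6 peaks in all, and 2 had a peak over the TSS, with none at Hes2, Hes7 and Helt. Of 11 other Twist, Hand and Tcf21 type bHLH genes, 9 had a peak, 13 in all, and the TSS was covered at 6 of the 10 annotated ones, with no peak at Scx and Ferd3l, factors of tendon and neural progenitors. None of the genes in these lists had 4 or more peaks. The 7 partners and inhibitors, the E proteins Tcf3, Tcf4 and Tcf12 and the Id proteins that sequester them, all had a peak over the TSS and 26 peaks together, with 4 at Tcf4, 4 at Id2 and 7 at Id3. Of the CpG-rich promoters in these lists, taken in order, 1 of 3, 5 of 6 and 6 of 6 were covered, beside 88.3% of all CpG-rich promoters.

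All 17 Notch pathway genes had a peak, 41 in all, and the TSS was covered at 12. Of their promoters 10 were CpG-rich and 9 of those were covered, beside 88.3% of all CpG-rich promoters. The receptor Notch2 had 4 peaks, the ligand Jag1 had 6, and the coactivators Maml2 and Maml3 had 4 and 9. Of all genes with a peak, 4.08% had exactly 4 and 3.54% had 5 or more. Rbpj itself had 1 peak, which did not cover its 5′-most coding TSS, and other annotated starts were not counted for these lists.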

How the data were processed

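ATAC-seq was performed by the authors on day 5 CPCs in 2 replicates of 1 group. Per the methods and the submitters' processing notes, reads were mapped to mm9 with Bowtie2, duplicates were removed with Picard 1.136, peaks were called with MACS with a fixed shift of reads, blacklisted regions were dropped and peaks found in both replicates were kept with bedtools 2.15. No correction for the Tn5 cut position other than that shift is described. The HOMER assignment to the nearest TSS is described for ChIP-Seq peaks. The 6 deposited columns hold the chromosome, start and end of each peak, the signed distance of its midpoint from a TSS in bp, an accession and a symbol, with no counts and no other score.

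The 26429 deposited lines hold 26232 distinct intervals, each counted once, and 0 columns of single samples were left unused. Sequence came from NCBIM37 (mm9) and gene models from GENCODE vM1, which lacks Uph, through pysam 0.24.0 in Python 3.11.15. The RefSeq table gave gene names and the set of protein coding genes behind the share with an assigned peak, and 99.9% of the genes of the list were found. Percentiles, GC content, CpG ratios and motif counts were computed per peak, and the measures were tested on simulated data. Shares have Wilson 95% intervals. No hypothesis test was made, because the list has no values per replicate. All 9 genes were named with every peak, and of the gene lists those with 4 or more peaks or with none. The genes and lists were chosen with earlier results of these data known. Alternatives were other duplicate handling, width minimums, gene assignments, joined peaks and motif windows.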

Additional observations from a re-analysis of the deposited data

How the results depend on the processing

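Of 55 values under alternative settings for 14 results, 42 stayed within the stated interval or within 1.5 times a count. Some of the 42 could not differ from the main value. The narrowest of the 23 peaks was 550 bp, so the 500 bp minimum removed none of them. Counting every line also gave 23 peaks, and the mean per gene only rescales the number of peaks. The tally is therefore not a measure of robustness. Counting only peaks wider than the list median of 1081 bp left 13 peaks (1.44 per gene over the 9), and the nearest such peak to Hand2 lay 166609 bp downstream in place of 8314 bp upstream. Counting every peak within 100 kb of the GENCODE TSS gave 43 peaks (4.78 per gene). The mean of the widest peak per gene was 1811 bp. Searching the whole peak in place of the central 300 bp gave TGGGAA in 17 peaks (73.9%, list 66.3%), the N-box in 21 (91.3%, list 87.5%), AGATAA in 11 (47.8%, list 33.5%) and the E-box in 95.7% (list 98.1%), so the E-box share fell below that of the list. The central 150 bp gave TGGGAA in 5 (21.7%, list 12.6%), the N-box in 6 (26.1%, list 26.6%), AGATAA in 1 (4.35%, list 5.10%) and the E-box in 12 (52.2%, list 45.1%), so AGATAA fell below the list. The window length sets these counts by construction. Assignment to the nearest GENCODE coding TSS with Uph left out, and the upstream share, were added after seeing the data. By nearest GENCODE coding TSS or Uph, the total was 21 peaks but Hand1 had 0 and Hand2 had 3.

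No paired analysis was possible because there was 1 group and no measurement of a single replicate, so no replicate was left out. Depth is unknown. Small or weak regions can be missing from the list, and widths depend on the caller and on the replicate whose coordinates were kept.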
